A study of Mus musculus with 6 samples.

Results

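The transcriptome described here is that of confluent MC3T3-E1 cells treated with the solvent DMSO for 16 h. MC3T3-E1 is a pre-osteoblast line derived from the calvaria of C57BL/6 mice. The cells were chosen by their sample titles, which name DMSO as the treatment, and they make up 3 of the 6 samples of the series. The other samples received the DNA-PK inhibitor NU7441 and were not used. Cultures had been grown in αMEM with 10% fetal bovine serum before the solvent was added, and libraries were made from total RNA with an Illumina mRNA kit. The concentration of DMSO is not stated. Triplicates of independent experiments had been pooled, per the series' design text, which leaves unsaid what separates the numbered samples. The spread between samples given here may therefore be partly or wholly technical. No genetic change is named for these cells, and the labels name no subclone.

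Pre-osteoblasts are mesenchymal cells committed to the bone lineage that still divide. They secrete a matrix built mainly on type I collagen, and on further differentiation they switch on alkaline phosphatase, bone sialoprotein and finally osteocalcin while the matrix mineralises. Runx2 and Sp7 (osterix) are the transcription factors that this lineage requires, and Wnt, BMP, FGF, parathyroid hormone and mechanical signals are known to steer it.

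The 3 libraries held 55070554, 47312968 and 71292628 gene counts. All counts were even, and a read pair was taken as 2 counts. Levels are given as RPKM, the reads per kilobase of gene length and per 1e6 reads of the library, as mean ± SD over 3 samples unless samples are listed, in which case DMSO 1, 2 and 3 follow each other in that order. A gene was called detected at 1 RPKM or more in each sample. By that rule 10677 of 23358 gene rows (45.7%) were detected, and their median level was 8.14 RPKM. Among protein-coding rows the share was 50.5%, among long non-coding RNA rows 11.7%. The shares of all rows and of protein-coding rows are the background for each count of listed genes below. At the upper end 296 rows reached 100 RPKM in each sample, while 6161 rows had no count in any sample. A count of 0 in all 3 samples allows a level of up to 3 read pairs over the group, and that limit covers counting error only. In bulk samples fewer cells of a type and less RNA per cell cannot be told apart. With 1 group there is no contrast, so that the results below are levels, counts and orders of levels with no test.

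**Figure D1:**
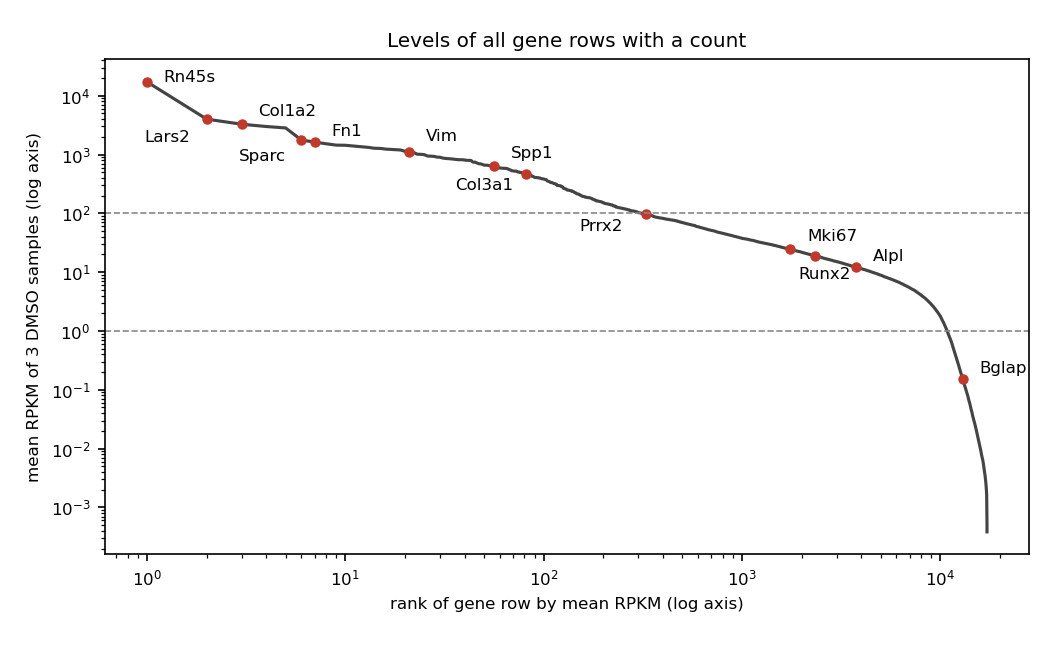
Mean RPKM of the 3 DMSO samples (vertical, log axis) against the rank of the gene row (horizontal, log axis) for all rows with a count. Dashed lines mark 1 and 100 RPKM. Red points are named genes, from Col1a2 at 3277 RPKM through Runx2 at 19.0 RPKM to Bglap at 0.150 RPKM.

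All 7 genes that mark the labelled cell type were detected. Col1a1 and Col1a2, the chains of type I collagen, and Sparc (osteonectin) were among the 6 rows with the highest means. Spp1 (osteopontin), a secreted phosphoprotein of bone matrix, stood at 642, 623 and 620 RPKM. Runx2 stood at 18.3, 19.3 and 19.5 RPKM, Sp7 at 16.0, 17.9 and 19.0 RPKM. The samples lay close together for both factors, and their ranges overlapped. Alpl, tissue-nonspecific alkaline phosphatase, was lower, at 11.2, 11.1 and 13.7 RPKM, with DMSO 3 above the other samples. Within this profile the markers thus spanned from 12.0 RPKM for Alpl to 3277 RPKM for Col1a2.

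The chains of type I collagen were the highest rows after the ribosomal RNA precursor Rn45s and Lars2. Col1a2 was at 3190, 3233 and 3409 RPKM and Col1a1 at 3003, 2855 and 3124 RPKM. Col1a2 exceeded Col1a1 in each sample, by a ratio of 1.10 ± 0.035, but with another gene length (the merged exons of GENCODE M21) the order was turned, with 1356 RPKM for Col1a2 and 2143 RPKM for Col1a1. The 43 rows of collagen chains together took 3.40% ± 0.084 of the summed RPKM, the ribosomal RNA row left out, and 7.36% ± 0.17 of the counts. The chains of type I alone took 2.43% ± 0.065 of the summed RPKM.

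Of the fibril-forming chains 10 of 11 were detected, against 45.7% of all rows. Col3a1, the chain of type III collagen of pliable tissues, stood at 446, 470 and 499 RPKM, so that Col1a1 exceeded it by 6.35 ± 0.34 times. The type V chains Col5a2 (265 ± 6.27 RPKM) and Col5a1 (224 ± 9.24), which limit the width of collagen fibrils, followed. Col11a1 was at 27.7 ± 1.31 RPKM. Col2a1, the main collagen of cartilage, was just above the threshold at 1.24, 1.28 and 1.24 RPKM, and Col11a2 was under it at 0.523 ± 0.032 RPKM. Beaded-filament and fibril-associated chains were abundant too. Col6a1 (387 ± 9.93 RPKM), Col6a3 (313 ± 7.55) and Col6a2 (261 ± 8.50) form type VI collagen, and Col12a1 (249 ± 8.66) binds to fibrils of type I. The basement membrane chains Col4a1 (41.4 ± 0.32 RPKM) and Col4a2 (40.9 ± 0.32) were at nearly equal levels, and their ranges overlapped. Of the 31 chains outside the fibril-forming class 14 were detected (45.2%), a share near that of all rows. Col10a1, the chain of hypertrophic cartilage, was at 0.0809 RPKM, and Col13a1 and Col19a1 had no count in any sample.

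The machinery that folds and crosslinks collagen was present almost in full. Of 33 genes 29 were detected (87.9%, against 45.7% of all rows) and 25 reached 10 RPKM in each sample. Pcolce, which aids removal of the C-terminal propeptide, was highest at 411, 411 and 430 RPKM. P4hb, a subunit of prolyl 4-hydroxylase, stood at 394, 403 and 415 RPKM. Serpinh1 (HSP47), the collagen chaperone, stood at 391, 374 and 408 RPKM. The ranges of these 3 genes overlapped in part. Lox, which starts the crosslinks, was at 120 ± 3.17 RPKM and made up 75.1% ± 0.52 of the lysyl oxidase family, followed by Loxl4 at 14.3 RPKM. Adamts3, a procollagen N-propeptidase, had no count in any sample, whereas Adamts2, of the same activity, was at 29.9 ± 1.02 RPKM. The endoplasmic reticulum genes listed for secretion were detected without exception, 33 of 33, from Sar1b at 19.0 RPKM to P4hb at 404 RPKM.

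Among proteoglycans and glycoproteins a few genes carried most of the signal. Fn1 (fibronectin) was at 1530, 1680 and 1670 RPKM, lowest in DMSO 1. Postn (periostin), a glycoprotein of periosteum, was at 537, 604 and 603 RPKM and was likewise lowest in DMSO 1. Of 12 small leucine-rich proteoglycans 9 were detected (75%, against 45.7% of all rows). Bgn (biglycan) led at 836, 807 and 833 RPKM and Fmod (fibromodulin) followed at 707, 698 and 760 RPKM, below it in each sample. Dcn (decorin), which is closely related to biglycan, was at 122 ± 9.69 RPKM, so that Bgn exceeded it by 6.80 ± 0.64 times. Ogn (167 ± 9.54 RPKM) and Aspn (129 ± 1.56) lie within the span of Cenpp (5.06 RPKM), and the use of strand in counting is not stated, so that reads of such overlapping genes cannot be told apart. Mgp (matrix Gla protein), an inhibitor of mineralisation, was at 816 ± 14.4 RPKM. Of 36 matricellular and adhesive glycoproteins 27 were detected (75%), among them Thbs2 (143 ± 1.90 RPKM), Ecm1 (118 ± 8.33) and Tnc (72.7 ± 9.49). Elastic fibres showed a split profile. Fbn1, the main microfibril protein, was at 112 ± 5.31 RPKM and Efemp2 (fibulin-4) at 142 ± 5.10 RPKM, while Eln, elastin itself, was at 0.0155 RPKM.

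Among enzymes that cleave matrix and their inhibitors a few members were abundant. Mmp2 (gelatinase A) stood at 217, 229 and 229 RPKM and its membrane-bound activator Mmp14 at 95.1, 97.9 and 99.3 RPKM. Timp2, an inhibitor that also takes part in that activation, exceeded Mmp2 in each sample by a ratio of 1.26 ± 0.014. Mmp13, the collagenase of mouse bone, was at 7.52 ± 0.24 RPKM. Of 18 genes of this class 10 were detected (55.6%, against 45.7% of all rows and 50.5% of protein-coding rows). The median over all 18 was 1.45 RPKM, and Mmp3 (0.00505 RPKM), Mmp12 (0.00252) and Mmp10 (no count) were among those not detected.

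**Figure D2:**
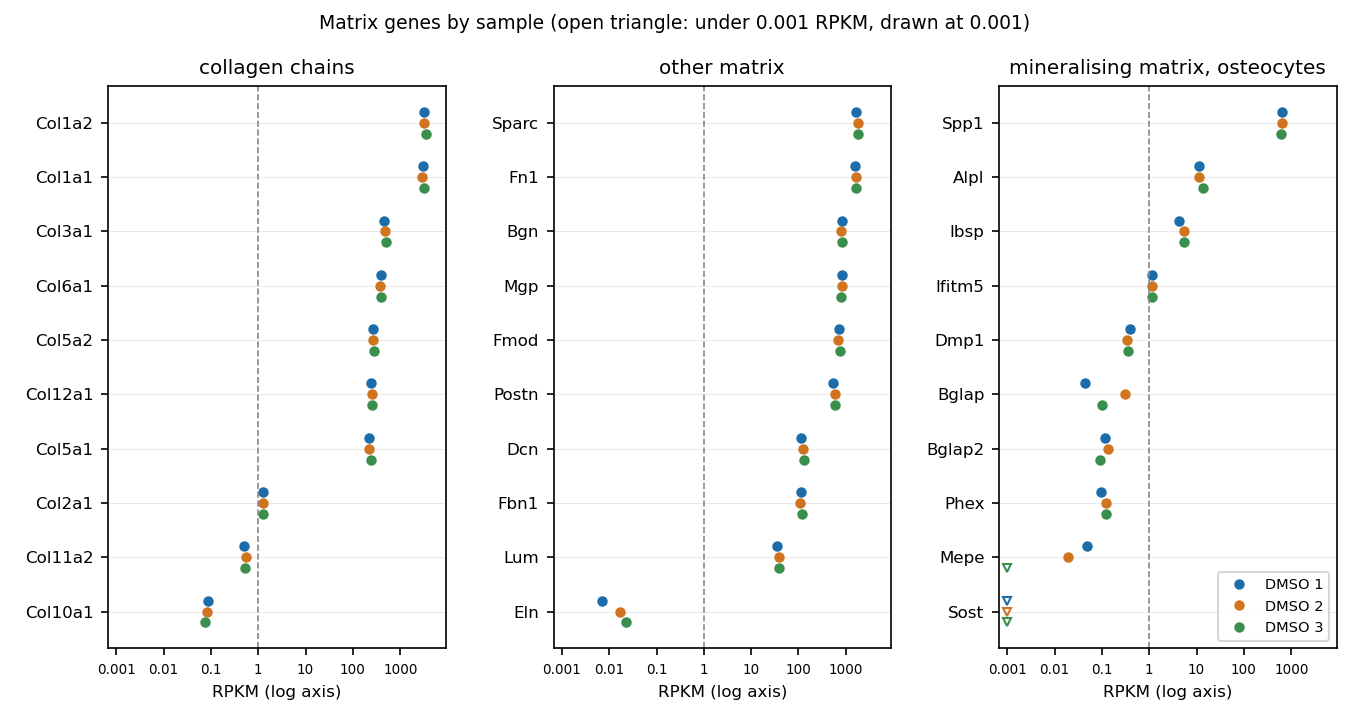
RPKM (log axis) of matrix genes in DMSO 1, 2 and 3, 1 point per sample, with a dashed line at 1 RPKM. Col1a2 to Col5a1 lie at 218 RPKM or more in each sample, whereas Bglap, Bglap2, Phex and Mepe lie under 1 RPKM in each.

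The genes of mineralising osteoblasts formed a steep gradient. Sparc stood at 1678, 1777 and 1846 RPKM and Spp1 at 628 ± 12.2 RPKM. Ibsp, bone sialoprotein, stood at 4.28, 5.52 and 5.43 RPKM, with DMSO 1 the lowest, and Sparc exceeded it by 351 ± 36.2 times. Ifitm5 (BRIL), an osteoblast membrane protein, was at 1.14 RPKM. Bglap and Bglap2, the osteocalcin genes, were not detected: Bglap stood at 0.0437, 0.304 and 0.102 RPKM, from 2, 12 and 6 counts, and Bglap2 had 4 counts in each sample. These are near-identical copies that share 80.5% and 95.2% of their 31-base words with other genes, so that their reads may be divided or lost, and their levels are uncertain. Phospho1, a phosphatase of matrix vesicles, was at 0.459 RPKM, Dmp1 at 0.367 RPKM and Phex at 0.113 RPKM. Of the 31-base words of Phospho1 87.1% occur in other genes, and it overlaps the row of Abi3, so that its level is uncertain too. In all 10 of the 19 genes of this class were detected (52.6%), a share near the 45.7% of all rows.

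The promoters of Sparc, Spp1, Ibsp and Bglap are shown because these bone matrix genes range from 1767 to 0.150 RPKM in the same cells. They are the 250 bases before the gene start from RefSeq on GRCm38.p6, written 5′ to 3′ along the gene's strand, at chr11:55420081-55420330 (minus strand), chr5:104434861-104435110 (plus), chr5:104299037-104299286 (plus) and chr3:88384467-88384716 (minus). Capitals mark the core letters ACCACA or TGTGGT bound by RUNX factors, searched on both strands.
Sparc: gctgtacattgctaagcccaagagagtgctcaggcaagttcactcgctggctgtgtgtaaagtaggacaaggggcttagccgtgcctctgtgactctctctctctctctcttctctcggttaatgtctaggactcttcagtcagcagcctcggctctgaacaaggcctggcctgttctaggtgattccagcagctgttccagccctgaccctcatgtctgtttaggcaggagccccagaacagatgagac
Spp1: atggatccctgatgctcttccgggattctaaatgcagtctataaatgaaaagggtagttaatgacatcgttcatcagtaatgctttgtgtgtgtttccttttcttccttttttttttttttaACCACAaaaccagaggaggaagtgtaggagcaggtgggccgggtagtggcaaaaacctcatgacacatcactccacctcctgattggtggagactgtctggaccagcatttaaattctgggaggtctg
Ibsp: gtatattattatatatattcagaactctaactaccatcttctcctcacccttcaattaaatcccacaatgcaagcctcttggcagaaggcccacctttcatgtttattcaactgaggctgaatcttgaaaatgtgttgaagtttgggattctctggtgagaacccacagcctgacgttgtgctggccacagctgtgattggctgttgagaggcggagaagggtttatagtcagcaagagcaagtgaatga
Bglap: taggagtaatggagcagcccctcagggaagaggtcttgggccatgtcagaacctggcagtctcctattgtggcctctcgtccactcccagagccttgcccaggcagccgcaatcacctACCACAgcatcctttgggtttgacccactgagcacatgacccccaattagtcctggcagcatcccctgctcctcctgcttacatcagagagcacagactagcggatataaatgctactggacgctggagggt
The core occurred once in Spp1, 128 bases before the start, and once in Bglap, 132 bases before it, and not in the windows of Sparc and Ibsp. Of 15254 rows with a listed promoter 11.9% held it in this window, as did 9.91% of the 7495 detected rows and 8.14% of the 221 rows at 100 RPKM or more. The letters TATAAA or TTTATA were found in Spp1, Ibsp and Bglap and in 12.0% of all promoters, in 5.88% of those of detected rows and in 13.6% of those at 100 RPKM or more. A match describes only the letters in the window. Whether a match is a bound site or bears on the levels was not tested.

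Transcription factors of the lineage were present at moderate levels. Of 24 listed 18 were detected (75%, against 45.7% of all rows) and none reached 100 RPKM in each sample. Atf4, which drives late osteoblast genes, stood at 79.5, 71.8 and 77.6 RPKM and the homeobox gene Prrx1 at 74.0, 74.3 and 73.5 RPKM. Prrx2, its close relative, was at 97.0 ± 3.23 RPKM, above Prrx1 in each sample by a ratio of 1.31 ± 0.042. Runx2 made up 62.5% ± 0.64 of the summed RPKM of the RUNX factors, with Runx3 at 7.69 ± 0.11 RPKM and Runx1 at 3.73 ± 0.087. Runx2 shares part of its span with Supt3h, which was at 4.35 RPKM. Cbfb, the partner subunit of RUNX proteins, was at 24.0 ± 0.22 RPKM. Alx4 (14.3 ± 0.55 RPKM) and Twist1 (14.2 ± 1.13), the latter a factor that restrains Runx2, had overlapping ranges. Dlx5 led the DLX factors at 9.35 ± 0.43 RPKM. Msx1, Dlx3, Foxc2, Hey1 and Zbtb16 were among those under the threshold, with Msx1 the highest of these at 0.727 RPKM.

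Lists of neighbouring lineages were detected in part or not at all. The shares detected of the osteocyte (37.5%), chondrocyte (38.5%) and tendon (50%) lists lay near the 45.7% of all rows. Of 8 osteocyte markers 3 were detected: Dstn (93.6 ± 4.34 RPKM), Capg (57.3 ± 1.89) and Pdpn (27.1 ± 0.66), the first pair of which are general actin-binding genes. Sost, the sclerostin gene of mature osteocytes, had no count in any sample, which allows up to 0.0126 RPKM. Among 13 chondrocyte markers 5 were detected. Sox9, the chondrogenic transcription factor, stood at 13.1, 13.0 and 13.5 RPKM, while Acan (aggrecan), a main cartilage proteoglycan, had no count. Of 8 tendon markers 4 were detected. Fmod, also a proteoglycan, is on this list at 722 ± 33.3 RPKM and makes up most of its summed 723 to 785 RPKM. Scx (scleraxis) was at 11.6 ± 0.33 RPKM, and it lies within the span of Bop1 (13.1 RPKM). Tnmd (tenomodulin) was at 0.624 RPKM. Of 11 adipocyte markers only Cebpa was detected (6.00 ± 0.20 RPKM), with Pparg, the regulator of fat cell formation, at 0.0195 RPKM and Adipoq at no count. None of 11 skeletal muscle markers was detected, and Myod1, Myf5, Myog, Myf6 and Pax7 had no count.

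Mesenchymal genes and the contractile apparatus were high. Vim (vimentin) stood at 1166, 1072 and 1123 RPKM and S100a4 at 665, 662 and 622 RPKM. Of 19 listed mesenchymal and fibroblast markers, which include Vim and are not all surface proteins, 14 were detected (73.7%, against 45.7% of all rows). Among them were Vcam1 (56.8 ± 2.23 RPKM), Cd34 (47.7 ± 2.09) and Ly6a (29.4 ± 2.71), also known as Sca-1. Eng, Mcam, Lepr, Alcam and Fap were under 1 RPKM. Of 15 smooth muscle and contractile genes 13 were detected (86.7%) and 7 reached 100 RPKM in each sample. Acta2, the smooth muscle actin of myofibroblasts, stood at 431, 388 and 401 RPKM. Its companions Cald1 (322 ± 11.9 RPKM) and Tpm1 (320 ± 1.87) followed. Myh11 and Cnn1, which mark differentiated smooth muscle, were at 0.0282 and 0.129 RPKM.

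Lists for other cell types that a culture could hold had few detected members, while several of those members reached 8 RPKM or more. Of 10 epithelial markers none was detected, and the summed level of the list was 0.743 to 0.933 RPKM per sample. In the endothelial list 1 of 12 was detected, Flt1 at 9.39 ± 0.15 RPKM, with Cdh5, Kdr, Tie1, Emcn and Sox17 at no count and Pecam1 at 0.0624 RPKM. In the macrophage and osteoclast list 3 of 15 were detected. Ctsk (cathepsin K) was at 54.4 ± 1.77 RPKM, Nfatc1 at 4.76 ± 0.39 and Lyz2 at 3.80 ± 0.18. The defining genes Ptprc (CD45), Emr1 (F4/80), Acp5, Tyrobp and Dcstamp had no count, and Csf1r was at 0.196 RPKM. Of 10 neural markers S100b (8.01 ± 0.43 RPKM) and Tubb3 (1.60 ± 0.14) were detected. Of 7 pluripotency markers only Klf4 was, at 10.1 ± 0.40 RPKM.

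**Figure D3:**
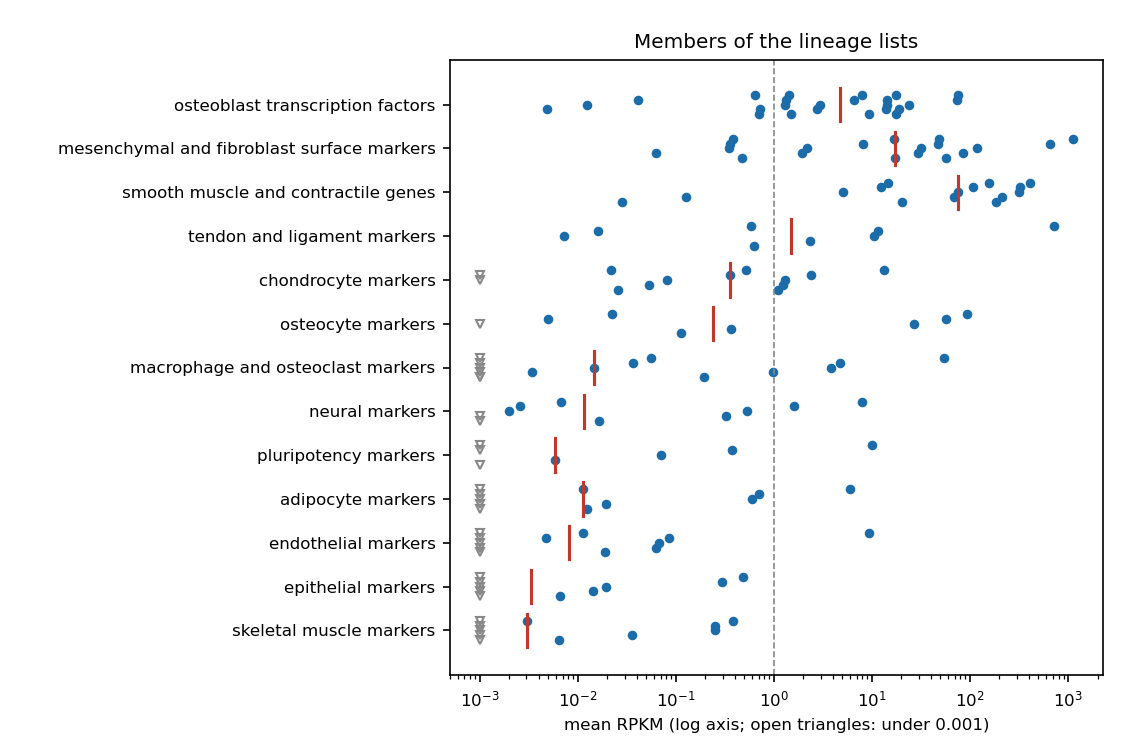
Mean RPKM of the 3 DMSO samples (log axis) for each member of the lineage lists, 1 point per gene, with the list median as a red bar and a dashed line at 1 RPKM. The mesenchymal, contractile and osteoblast lists have medians of 17.3, 76.3 and 4.78 RPKM, and the adipocyte, endothelial, epithelial and muscle lists have medians under 0.02 RPKM.

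Wnt ligands and the genes listed as their antagonists were detected about equally often, and 3 genes of the antagonist list exceeded the highest ligand. Of 19 Wnt genes 6 were detected (31.6%, against 45.7% of all rows). Wnt10a stood at 14.4, 13.6 and 13.9 RPKM and Wnt10b, known to favour bone formation, at 12.0, 12.9 and 13.3 RPKM. Wnt6 (7.31 ± 0.43 RPKM) and Wnt5a (3.91 ± 0.40) followed. Sfrp2, which binds Wnt proteins outside the cell, stood at 154, 155 and 163 RPKM and exceeded Wnt10a by 11.3 ± 0.52 times. Dkk3 was at 56.1 ± 1.16 RPKM and Wif1 at 18.5 ± 1.25 RPKM. Dkk1, an inhibitor that binds Lrp5 and Lrp6, was at 0.128 RPKM, and 4 of 13 antagonists were detected (30.8%), with a median over all 13 of 0.198 RPKM. On the receiving side 17 of 23 genes were detected (73.9%). Fzd1 (32.7 ± 1.41 RPKM) made up 39.6% ± 1.14 of the Frizzled family, and the co-receptors Lrp6 (26.1 ± 0.27) and Lrp5 (19.0 ± 0.97) were in the same range. The order of the detected Frizzled genes differed between samples below the leading Fzd1. Ctnnb1, beta-catenin, was at 140, 145 and 147 RPKM. Axin2, a direct target of the pathway, was at 3.97 RPKM and Lef1 at 1.30 RPKM.

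Of 18 BMP, GDF and activin ligands 7 were detected (38.9%), a share near the 45.7% of all rows, as were all 3 TGF-beta ligands. Bmp4 was the leading BMP ligand at 25.9, 25.7 and 26.4 RPKM. Bmp2 had no count, which allows up to 0.0103 RPKM, and neither had Bmp5 and Bmp7. Inhba, a chain of activin A, was at 11.6 ± 0.47 RPKM. Antagonists were widely present, 8 of 11 (72.7%), with Twsg1 (34.1 ± 0.46 RPKM), Fst (29.1 ± 0.82) and Grem1 (17.3 ± 1.89) among them. Nog (noggin) was under the threshold at 0.585 RPKM. Fstl1, a relative of follistatin, was higher, at 194 ± 4.49 RPKM. Tgfb3 made up 65.3% ± 1.29 of the TGF-beta ligands, at 32.6, 30.6 and 32.5 RPKM, against 10.4 ± 0.32 for Tgfb1. Tgfbr2 (45.9 ± 1.09 RPKM) exceeded its signalling partner Tgfbr1 (10.4 ± 0.16). Of the BMP receptors Bmpr1a (18.8 ± 0.10 RPKM), Acvr1 (18.1 ± 0.36) and Bmpr2 (15.0 ± 0.29) were detected and Bmpr1b (0.00133 RPKM) was not. All 12 SMAD and target genes listed were detected, led by Id3, a BMP target, at 76.1 ± 2.36 RPKM.

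Receptor tyrosine kinases were led by those for FGF, collagen and PDGF. Fgfr2 stood at 66.7, 69.7 and 72.9 RPKM and Fgfr1 at 50.7, 52.6 and 54.0 RPKM, so that Fgfr2 was higher in each sample by a ratio of 1.33 ± 0.018. Ddr2, a receptor for fibrillar collagen, was at 49.4 ± 0.49 RPKM. Pdgfrb (31.9 ± 1.21 RPKM) exceeded Pdgfra (16.9 ± 0.13) by 1.89 ± 0.067 times. Axl was at 23.0 ± 1.25 RPKM, and its ligand Gas6 at 123 ± 2.68 RPKM was the highest of the 23 growth factor genes listed with it. Of 29 kinases 18 were detected (62.1%, against 45.7% of all rows), and Kit, Kdr and Erbb4 were among those with no count. Of 22 FGF ligands only Fgf7 (34.9, 30.8 and 28.6 RPKM) and Fgf2 (1.29 ± 0.12 RPKM) were detected (9.09%). Fgf18, which acts on bone and cartilage, was at 0.664 RPKM. Igf1 was at 15.9 ± 0.81 RPKM and its receptor Igf1r at 12.1 ± 0.26. Igfbp4, which holds back IGF, was at 251, 273 and 273 RPKM and made up 56.2% ± 1.72 of its family. Igfbp3 had no count, which allows up to 0.0107 RPKM.

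**Figure D4:**
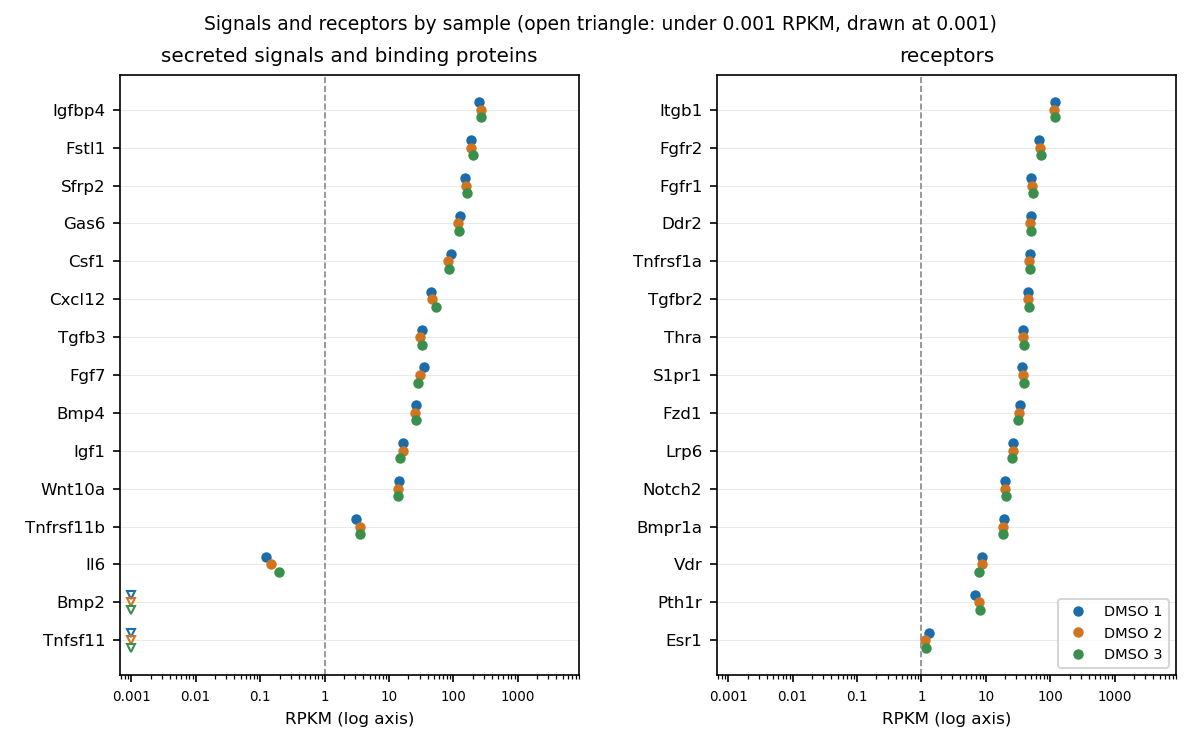
RPKM (log axis) of secreted signals and binding proteins, on one side, and of receptors, on the other, in DMSO 1, 2 and 3, 1 point per sample. Igfbp4, Fstl1, Sfrp2 and Gas6 lie above 100 RPKM in each sample, and Bmp2 and Tnfsf11 had no count and are drawn at the lower edge.

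Hormone receptors of bone were present at low to moderate levels. Thra, a thyroid hormone receptor, was highest of the 24 listed at 38.3 ± 0.83 RPKM, and Nr3c1, the glucocorticoid receptor, was at 16.0 ± 0.35. Vdr, the vitamin D receptor, stood at 8.70, 8.73 and 7.91 RPKM. Pth1r, the receptor of parathyroid hormone, stood at 6.90, 7.72 and 8.01 RPKM. The oestrogen receptor gene Esr1 was at 1.21 RPKM. In all 13 of 24 were detected (54.2%, against 45.7% of all rows and 50.5% of protein-coding rows). Of 30 G protein-coupled receptors 9 were (30%). That count became 14 at a threshold of 0.5 RPKM and 16 with TPM or with 1 count per 1e6 counts. Among the 9 were S1pr1 (37.9 ± 0.85 RPKM) and Lpar1 (18.5 ± 0.72), receptors for lysophospholipids found in serum and the highest of the list. Ptger1 was at 5.88 ± 0.12 RPKM while Ptger4, another receptor for prostaglandin E, was at 1.01 RPKM and failed the threshold in at least 1 sample.

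Genes that link osteoblasts with osteoclasts were unequal. Csf1, the growth factor of osteoclast precursors, stood at 90.6, 82.1 and 86.2 RPKM. Tnfsf11 (RANKL) had no count, which allows up to 0.0116 RPKM. Tnfrsf11b (osteoprotegerin), its decoy receptor, stood at 3.13, 3.50 and 3.50 RPKM, and Csf1 exceeded it by 25.6 ± 2.88 times. Cxcl12 (48.1 ± 4.47 RPKM) and Sema3a (16.8 ± 0.50) were detected. The chemokine genes Ccl2 (9.63 ± 0.67 RPKM), Ccl7 (6.15 ± 1.00) and Ccl5 (1.70 ± 0.45) were detected too, whereas Il6 (0.155 RPKM), Il1b (0.0403) and Tnf (no count) were not. In all 10 of the 23 cytokine genes were detected (43.5%), a share near the 45.7% of all rows. Of the cytokine and interferon receptors 20 of 23 were detected (87.0%), among them Tnfrsf1a (47.3 ± 0.96 RPKM) and Il6st (43.0 ± 1.48), the shared signalling chain for interleukin-6.

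Adhesion and mechanosensing genes were dominated by a few members. Itgb1, the common integrin beta subunit, was at 121, 114 and 120 RPKM and Itgb5 at 68.2 ± 3.73. Among alpha subunits Itga11, a collagen receptor chain, was highest at 34.6 ± 0.85 RPKM, followed by Itgav (27.6 ± 0.86) and Itga5 (17.2 ± 0.27). Cdh11, the osteoblast cadherin, made up 94.1% ± 0.16 of the classical cadherins, at 147, 147 and 152 RPKM. Gja1 (connexin 43) was at 42.8 ± 2.08 RPKM. The table's Fam38a, the older symbol of the stretch-activated channel gene Piezo1, was at 16.5 ± 0.53 RPKM, and Fam38b (Piezo2) had no count. Yap1 (19.0 ± 0.29 RPKM) exceeded Wwtr1 (12.4 ± 0.57), although with merged exon lengths that order was turned. Notch2 made up 65.9% ± 0.63 of the Notch receptors at 20.2 ± 0.41 RPKM, while Hes1, a Notch target, was at 1.37 RPKM and Hey1 at 0.0409.

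Intracellular signalling genes were detected almost in full, against 45.7% of all rows and 50.5% of protein-coding rows. Of 38 Wnt, Hippo and MAPK components 35 were detected (92.1%), and of 32 PI3K, AKT, mTOR and PKA components 29 (90.6%). Gnas, the stimulatory G protein subunit downstream of Pth1r, was at 99.7 ± 3.44 RPKM. Akt1 (47.7 ± 1.53 RPKM) led the AKT kinases. Prkdc, the catalytic subunit of the kinase that NU7441 inhibits, stood at 2.90, 3.02 and 2.93 RPKM. Naca, which encodes the alpha chain of the nascent polypeptide-associated complex, was at 46.4 ± 0.45 RPKM, and Btf3, the beta chain, exceeded it by 4.18 ± 0.085 times. That ratio is uncertain, since 63.3% of the 31-base words of Btf3 occur in other genes, against 8.54% in Naca. Jun was at 8.32 ± 0.23 RPKM and Fos at 1.44 RPKM.

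Ribosomal protein genes took a larger share of the summed RPKM than collagen chains and a smaller share of the counts. Their 79 rows took 19.1% ± 0.11 of the summed RPKM without the ribosomal RNA row and 5.88% ± 0.034 of the counts, against 7.36% of the counts for collagen chains. With merged exon lengths the share was 14.7% ± 0.062. All 79 were detected, and 71 reached 100 RPKM in each sample. Rps18 (1451, 1537 and 1584 RPKM) and Rpl41 (1426, 1431 and 1480 RPKM) were highest, and their ranges overlapped. At the other end Rps27 was at 3.23 RPKM, Rpl26 at 4.75, Rpl34 at 8.17 and Rpl30 at 10.0. Ribosomes hold most of their proteins in equal numbers, and many of these genes have processed pseudogenes that share their sequence. Rps27, Rpl26, Rpl34 and Rpl30 each overlap another row in position, Rpl34 that of Rpl34-ps1, which was at 385.5 RPKM. Some of the higher genes overlap other rows too. The use of strand in counting is not stated, so that these low levels are uncertain. Of the 31-base words in Rps27 50.1% occur in other genes, against 14.5% in Rpl34 and 86.2% in Rps18. Over all 79 genes Spearman's rho between that share and the level was 0.21, a description across genes. The parts of shared sequence and of overlap in these levels were not tested.

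Reference genes were detected without exception, 24 of 24. Eef1a1, the elongation factor, stood at 2779, 2786 and 2934 RPKM, Actg1 at 957, 909 and 923 RPKM and Actb at 427, 399 and 402 RPKM. Actg1 exceeded Actb by 2.27 ± 0.028 times. Gapdh, usually among the most abundant messenger RNAs, stood at 23.9, 22.1 and 24.3 RPKM, and its mean was 6.98 RPKM with merged exon lengths. Other glycolytic genes were higher, with Pkm2 (the Pkm row) at 208 ± 10.1 RPKM, Ldha at 194 ± 6.98 and Pgk1 exceeding Gapdh by 5.43 ± 0.20 times, whereas Eno1 was at 2.13 RPKM. In Gapdh 62.6% of the 31-base words occur in other genes, in Pgk1 68.3% and in Eno1 53.5%. Spearman's rho between that share and the level was 0.49 over the 24 reference genes and 0.71 over the 31 glycolysis genes, again a description across genes. The levels of genes with shared sequence are uncertain, that of Actg1 (47.2%) included, and the part of shared sequence was not tested.

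Genes of cell division were detected for the most part. Cdk4 was at 133 ± 3.73 RPKM, Pcna at 90.1 ± 1.36 and Top2a at 57.6 ± 3.52. Mki67, the gene of the Ki-67 antigen of dividing cells, stood at 26.6, 23.7 and 22.5 RPKM. The cyclin genes Ccnd2 (68.5, 70.3 and 73.0 RPKM) and Ccnd1 (68.4, 64.3 and 64.5 RPKM) were close, at a ratio of means of 1.07, and with merged exon lengths Ccnd1 led. Cdkn1a (p21), an inhibitor of cyclin-dependent kinases, was at 86.1 ± 3.01 RPKM. Of 28 genes 25 were detected (89.3%, against 45.7% of all rows). The other members were all inhibitors of cyclin-dependent kinases: Cdkn2a and Cdkn2b, with no count, and Cdkn1c at 0.0512 RPKM.

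Samples differed little for most genes. The median SD of log2 RPKM over the 3 samples was 0.05 among detected rows, and 95% of the rows lay under 0.16. Pearson's r of log2 RPKM, across genes, was between 0.996 and 0.997 for the 3 pairs of samples. An SD above 0.5 was found for 29 detected rows and above 1 for 2 rows. Tmem158, a membrane protein gene, stood apart at 1.34, 435 and 450 RPKM, from 170, 47684 and 73486 counts, so that DMSO 1 lay far under the other samples, and its mean of 296 RPKM became 443 RPKM without DMSO 1. Tnks1bp1 stood at 90.5, 30.0 and 31.3 RPKM and Atp5d, a subunit of ATP synthase, at 184, 72.5 and 74.8 RPKM, with DMSO 1 above the others in both. Srek1 (13.9, 28.5 and 14.4 RPKM) and Grn (133, 86.8 and 128 RPKM) departed in DMSO 2, and Nxn (33.9, 33.5 and 57.2 RPKM) in DMSO 3. Of the 60 rows with the largest spread and a mean of at least 10 RPKM, DMSO 1 was farthest from the median in 27, DMSO 2 in 18 and DMSO 3 in 15. Each of the 7 marker genes had an SD under 0.2 on the log2 scale. That of Alpl, 0.172, lay above the 0.16 under which 95% of detected rows lay.

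**Figure D5:**
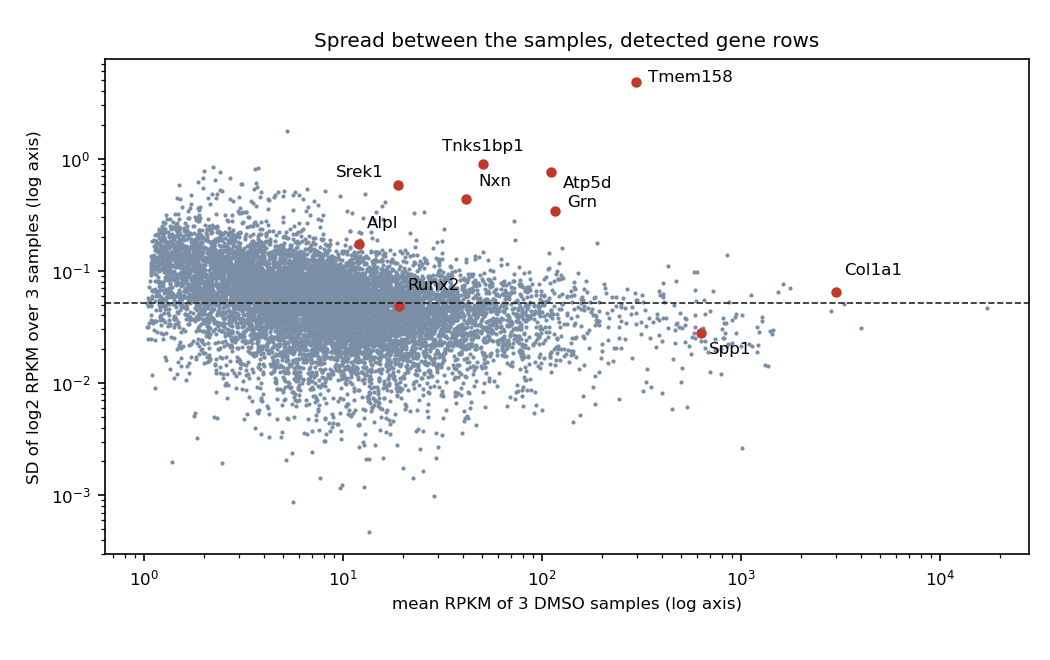
SD of log2 RPKM over the 3 DMSO samples (vertical, log axis) against mean RPKM (horizontal, log axis) for 10677 detected rows, with the median of 0.05 as a dashed line. Tmem158 lies at 4.83, far above the rest, while Runx2 and Col1a1 lie near the median.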

How the data were processed

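RNA-seq of 3 DMSO samples was analysed. Per the file headers, the deposited table gives counts, RPKM and a length for 23358 gene rows. The build mm10, TopHat2 (version 2.0.6), HTSeq and bcl2fastq appear in the submitters' processing notes without settings. The deposited counts are all even, and a read pair was therefore taken as 2 counts. The deposited RPKM values equal the count divided by length and by a total per sample (63219366 to 94219817), of which the gene counts make up 74.8% to 75.7%. Rn45s, the ribosomal RNA precursor, took 12.9% to 13.9% of gene counts and was left out of shares.

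Detection, means, SDs, shares and family orders were computed in Python 3.11.15 (pandas 2.3.3) from the deposited RPKM. The 49 gene lists, with 938 members that have a row (619 detected), the 44 families and the samples were chosen with earlier results of these data known, and older symbols were added to the lists after the table was seen. Genes named are the 7 markers, the 20 rows of highest mean, the top members of lists and families, members at or under the threshold, members named to show the range, and the 10 most variable rows with a mean of at least 10 RPKM, of which not all are described, and some results are not reported here. Words of 31 bases were compared over GENCODE M21 transcripts. The procedure was tested on simulated counts for 23358 rows, of which 99.9% of those away from the threshold were called as simulated. That simulation took the observed means as true levels, with counting noise alone for most rows. It therefore checked the calculation and could not check shared sequence, overlap or gene length. Scaling used edgeR 4.0.16 and DESeq2 1.42.0 as alternatives. The spread between samples sets the precision, and a count of 0 in a sample allows 0.0637 to 0.0949 RPKM for a gene of 1 kilobase.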

Additional observations from a re-analysis of the deposited data

How the results depend on the processing

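No paired analysis was possible because a single group was described and the results come from no test. The count of rows at 100 RPKM or more moved from 296 to 1593 when each sample was rescaled to TPM without the ribosomal RNA row, since the deposited RPKM without that row sum to only 255014 to 260732 per sample, and to 186 with the merged exon lengths of GENCODE M21. The share of ribosomal proteins moved from 19.1% to 14.7% with those lengths, and to 19.4% without the Lars2 row, an alternative chosen after seeing the data. The number of detected rows was 10677, and it ranged from 7139 at a threshold of 5 RPKM to 12102 with TPM. The share of collagen chains (3.36% to 3.47%), the median SD of log2 RPKM (0.0418 to 0.0719), and the detected members over all lists (499 to 685, against 619) moved by less than the SD or 1.5 times. With merged exon lengths Col1a1, Ccnd1 and Wwtr1 led their families in place of Col1a2, Ccnd2 and Yap1, and the levels of Gapdh (6.98 RPKM), Alpl (7.5), Sparc (1072) and Prrx2 (55.8) were over 1.5 times lower. Leaving out each sample in turn gave 10716 to 10734 detected rows, 298 to 306 at 100 RPKM, collagen shares of 3.36% to 3.43% and ribosomal protein shares of 19.1% to 19.2%. By list, the detected count moved by over 1.5 times in 12 of 49 lists at 5 RPKM, in 7 with TPM, in 4 with 1 count per 1e6 counts and in 2 each with 0.5 RPKM or merged exon lengths. Depth limits genes of few counts such as Bglap, for which 2 to 12 counts were found.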

Other observations

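Members of several families of structural and membrane genes were strongly unequal in level in these cells. The leader of a family, chosen by its mean over the same 3 samples, exceeded the next member in each sample in all 44 families examined. That count is nearly fixed by the choice, and some leads were slight, such as 1.07 for Ccnd2 over Ccnd1. Lgals1 (galectin-1), a lectin of the cell surface and matrix, was at 1014 ± 28.2 RPKM and made up 89.9% ± 0.19 of the galectins, against 66.6 RPKM for Lgals3. Anxa2, a membrane-binding annexin, was at 474 ± 11.2 RPKM and Anxa1 at 319 ± 13.7. Lmna, the gene of the A-type lamins of the nuclear envelope, made up 84.3% ± 0.19 of the lamins at 171 ± 5.45 RPKM. Sdc2 led the syndecans, heparan sulfate proteoglycans of the membrane, at 86.1 ± 0.88 RPKM. Slc2a1 made up 98.7% of the glucose transporters listed. Among the enolases Eno3, known from muscle, was at 6.97 RPKM, above Eno2 (2.82) and Eno1 (2.13), although 53.5% of the 31-base words of Eno1 occur in other genes and its place in this order is uncertain.

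Lars2, a mitochondrial leucyl-tRNA synthetase, stood at 4083, 4001 and 3911 RPKM, the second-highest row of the table. The other 16 mitochondrial synthetases ranged from 1.26 to 17.6 RPKM with a median of 3.71, so that Lars2 exceeded the highest of them, Iars2, by 227 times. With merged exon lengths Lars2 was at 1399 RPKM. In Lars2 0.928% of the 31-base words occur in transcripts of other genes in GENCODE M21. That share counts words and not reads, and the Rn45s sequence was not compared separately, so that it cannot show where the reads came from. The cause of the high Lars2 level was not tested.

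Mtap, Cdkn2a and Cdkn2b, which follow each other at chr4:89137370-89311032 (mm10), had no count in any sample, which allows up to 0.0102, 0.0229 and 0.0187 RPKM. Cdkn2a and Cdkn2b encode inhibitors of cyclin-dependent kinases and Mtap an enzyme of methionine salvage. On one side the nearest row, Gm12603, was at 0.300 RPKM, and Mir31 beyond it was at 11.1 RPKM. On the other side Dmrta1 was at 0.00843 RPKM and Plaa at 6.16 RPKM. Between Dmrta1 and Plaa the rows of Gm12633, Elavl2, Izumo3 and Tusc1 had no count either, and Zfp352 was at 0.0426 RPKM. The row of 5830433M19Rik, between Tusc1 and Plaa, was detected at 2.49, 2.49 and 2.23 RPKM. The cause was not tested.

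The Y-linked genes Eif2s3y (31.3 ± 1.30 RPKM), Ddx3y (13.5 ± 0.73), Kdm5d (9.40 ± 0.17) and Uty (5.01 ± 0.36) were detected, and Xist was at 0.0100 RPKM.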
